A study of Homo sapiens with 12 samples.

Results

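The cadherins and protocadherins are cell surface proteins that bind their like on a neighbouring cell through repeated extracellular domains held rigid by calcium. The members were the protein-coding autosomal genes with the GENCODE symbols CDH plus a number, PCDH plus any suffix, FAT1 to FAT4, DCHS1 and DCHS2. There were 92 of them among the 60675 gene IDs of the count tables, and all 92 were present in the tables of both assays. They comprised 5 classical type I cadherins, 13 type II cadherins, 5 other CDH genes, 6 giant cadherins of the FAT and Dachsous kind, 7 delta protocadherins, 3 other solitary protocadherins, and the 15 alpha, 16 beta and 22 gamma genes of the protocadherin clusters. The choice of members used names only and no measured value.

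A pair of human melanoma lines was set against each other. The MIR211 line, labelled A375/211, overexpresses MIR211, which encodes the microRNA miR-211, and A375 (ATCC CRL-1619) is the line it is named after. Each line gave 2 total RNA-seq libraries, a and b. For BRIC-seq, RNA was labelled with 5-bromouridine for 24 h and pulled down by its label at 0, 1, 3 and 6 h afterwards, with 1 library per line and time. Both lines were grown in the same medium. There is 1 pair of lines, and neither the vector nor the number of clones is given in the sources used here, so an effect of MIR211 and any other difference between the lines cannot be told apart.

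Classical cadherins bind catenins inside the cell and so tie adhesion to actin, and melanocytes are held to keratinocytes by E-cadherin (CDH1), which melanomas often exchange for N-cadherin (CDH2). Clustered protocadherins lie in tandem, and each cell uses a choice of their promoters, best known from neurons, where the chosen set labels the cell. In the alpha and gamma clusters each gene supplies a variable first exon that is spliced to constant exons shared by the whole cluster, while each beta gene is a single exon. FAT and Dachsous proteins are very large cadherins that pair across cell borders and feed the Hippo pathway and tissue polarity.

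RNA-seq libraries held 34130525 and 30528273 counts in the MIR211 line and 20847481 and 28372099 counts in A375. BRIC-seq libraries held 2783520 to 6663297 counts in the MIR211 line and 2671651 to 7279038 counts in A375, deeper at later times in both. MIR211 itself had 36 and 18 counts in the MIR211 line and 0 and 0 in A375, as the labels state. Of the 6 melanocyte markers, SOX10 was present at 206 and 231 CPM in the MIR211 line and 163 and 135 CPM in A375, and MITF at 38.8 and 49.0 CPM in the MIR211 line and 253 and 244 CPM in A375. All 6 summed to 287 to 323 CPM in the MIR211 line and 455 to 457 CPM in A375, with MITF past the test's threshold. MLANA and TYR were below 1 CPM in every RNA-seq library of both lines. In labelled RNA, 2 of 5 tested melanocyte markers were called higher in the MIR211 line (DCT and PMEL) and 1 lower (SOX10). Among all genes tested there, 13.6% were higher and 12.3% lower. SOX10 and PMEL lay the other way in RNA-seq, PMEL at 3.85 and 3.55 CPM in the MIR211 line and 13.3 and 7.93 CPM in A375. The summed level of 5 fibroblast markers ran from 25.7 to 26.9 CPM in the MIR211 line and from 26.1 to 61.3 CPM in A375, but its members moved in opposite directions. COL1A2 was at 0.235 and 0.517 CPM in the MIR211 line and 17.1 and 50.9 CPM in A375, while the other 4 summed to 26.6 and 25.2 CPM in the MIR211 line and 8.98 and 10.3 CPM in A375. The 5 endothelium markers summed to 6.35 to 9.50 CPM in the MIR211 line and 3.82 to 4.47 CPM in A375, mostly from KDR, with CLDN5 and PECAM1 at 0. Leukocyte markers summed to 1.03 to 1.50 CPM in the MIR211 line and 1.36 to 2.95 CPM in A375 (CD3E and PTPRC at 0), keratinocyte markers to 16.8 to 18.3 CPM in the MIR211 line and 15.2 to 20.4 CPM in A375 (DSG3, KRT1 and KRT5 at 0), and neuron markers to 38.9 to 46.6 CPM in the MIR211 line and 28.2 to 66.3 CPM in A375 (RBFOX3 and STMN2 at 0). Their part in the results was not tested. CPM gives counts scaled to a common library size, and TPM also divides by exon length, which allows genes to be compared. Separate cultures are not stated for the libraries, so the spread behind the p-values may be technical only. In bulk samples fewer cells of a type and less RNA per cell cannot be told apart.

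The mature miR-211 strand is shown first because its seed (bases 2 to 8, in capitals) is what pairs with messenger RNA. It lies at chr15:31065095-31065116 on the minus strand of GRCh38.p14 (RefSeq).
hsa-miR-211-5p: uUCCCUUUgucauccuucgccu
The 7 bases that pair with the seed, AAAGGGA, were searched for in 3′ UTRs of GENCODE 44 (hg38), on the gene's strand. Of the 92 members, 22 (23.9%) held at least 1 match, against 17.3% of 19550 protein-coding genes with an annotated 3′ UTR, and the members' UTRs were longer, with a median of 1802 bases against 1064. The search used 1 canonical transcript per gene, and other isoforms were not searched. In those transcripts all 15 alpha genes end in the same 3′ UTR and so share 1 match. The following sites, with the match in capitals, belong to the members described most below. CDH2 and the rest are given in the direction of the gene, with CDH2 on the minus strand and the others on the plus strand.
Alpha cluster, all 15 genes (chr5:141010473-141010501): agtgtaaacttAAAGGGAccagactttct
FAT3 (chr11:92894806-92894834): tgaaaggctggAAAGGGAactagtttctg
CDH2 (chr18:27951568-27951596): tggttgcaaatAAAGGGAgttttcatatc
CDH13 (chr16:83800445-83800473): cacacttttcaAAAGGGAtaaaagttaat
CDH6 (chr5:31326534-31326562): tttgtgtccatAAAGGGAtgttcagcaat
The other members with a match were CDH4, CDH8 and PCDH9. A match describes the letters only.

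Promoters of the clusters are shown because the members of a cluster resemble each other there. RefSeq promoters (GRCh38.p14, 250 bases before the start) were found for 70 members. For each cluster the 8 bases that occurred in most of its promoters were picked from those same promoters, with ties settled in favour of words holding CGCT, and then searched for on both strands. In the alpha cluster, ATGTCGCT was in 9 of 13 promoters, against 0.182% of all 35116 promoters of the same length. In the beta cluster, GTGGCGCT was in 12 of 14 promoters, against 0.940% of all. In the gamma cluster, GCCGCTGT was in 13 of 25 promoters, from 11 of 20 genes, against 1.23% of all. None of the 3 words was found in the 36 promoters of members outside the clusters. At the shares of all promoters, none would be likely among so few. The words were also picked for being common in the clusters, so neither contrast is a test. Windows from the plus strand of chromosome 5 follow, with the word in capitals.
PCDHA1 (chr5:140786078-140786125): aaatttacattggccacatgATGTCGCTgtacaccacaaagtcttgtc
PCDHA6 (chr5:140827889-140827936): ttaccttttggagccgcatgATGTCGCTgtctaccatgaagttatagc
PCDHA10 (chr5:140855833-140855880): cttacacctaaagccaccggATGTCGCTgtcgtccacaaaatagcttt
PCDHB2 (chr5:141094536-141094583): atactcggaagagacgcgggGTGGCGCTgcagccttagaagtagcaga
PCDHB10 (chr5:141192291-141192338): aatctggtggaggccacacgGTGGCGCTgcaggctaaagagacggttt
PCDHB16 (chr5:141182302-141182349): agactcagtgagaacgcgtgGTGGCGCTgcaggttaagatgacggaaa
PCDHGA9 (chr5:141402708-141402755): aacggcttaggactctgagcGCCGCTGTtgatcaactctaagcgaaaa
PCDHGC3 (chr5:141475874-141475921): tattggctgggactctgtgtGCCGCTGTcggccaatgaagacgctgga
The word began 42 bases before the start in PCDHA1, 59 in PCDHB2 and 72 in PCDHGC3.

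In total RNA a minority of the superfamily was well detected. A mean of at least 1 TPM over the 4 RNA-seq libraries was reached by 34 of the 92 members, and 10 had a count of 0 in all 4. FAT1, a giant cadherin that binds actin regulators, was the highest, at 27.2 and 31.6 TPM in the MIR211 line and 23.8 and 29.4 TPM in A375. The lowest FAT1 library lay above the highest library of every other member. The lines overlapped in TPM but not in CPM, at 322 and 346 CPM in the MIR211 line and 284 and 319 CPM in A375. N-cadherin (CDH2) came next, at 15.4 and 18.9 TPM in the MIR211 line and 18.3 and 15.5 TPM in A375, and the lines overlapped. Cadherin-19 (CDH19), a type II cadherin of neural crest derivatives, stood at 15.5 and 13.0 TPM in the MIR211 line and 10.7 and 4.01 TPM in A375. T-cadherin (CDH13), which is anchored by a lipid and lacks a catenin-binding tail, stood at 10.2 and 7.69 TPM in the MIR211 line and 6.29 and 3.38 TPM in A375. For both genes the MIR211 libraries lay above both A375 libraries. The gene with the highest mean TPM was PCDHB5 in the beta cluster, PCDHGC3 in the gamma cluster and PCDHA6 in the alpha cluster. PCDHB5 stood at 9.65 and 11.5 TPM in the MIR211 line and 5.11 and 8.50 TPM in A375, and PCDHA6 at 2.99 and 3.62 TPM in the MIR211 line and 2.30 and 2.27 TPM in A375.

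E-cadherin (CDH1) had 0 counts in all 4 RNA-seq libraries, which allows a level of up to 0.0464 CPM over the MIR211 libraries and 0.061 CPM over the A375 libraries, for counting error only. Its BRIC-seq counts were 0 at every time in the MIR211 line and 0, 1, 2 and 0 at 0, 1, 3 and 6 h in A375. The genes CDH5, CDH9, CDH16, CDH17, CDH20, CDH22 and PCDH8 were at 0 in all 12 libraries. CDH5 is the cadherin of endothelium and CDH16 and CDH17 belong to kidney and gut.

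**Figure D1:**
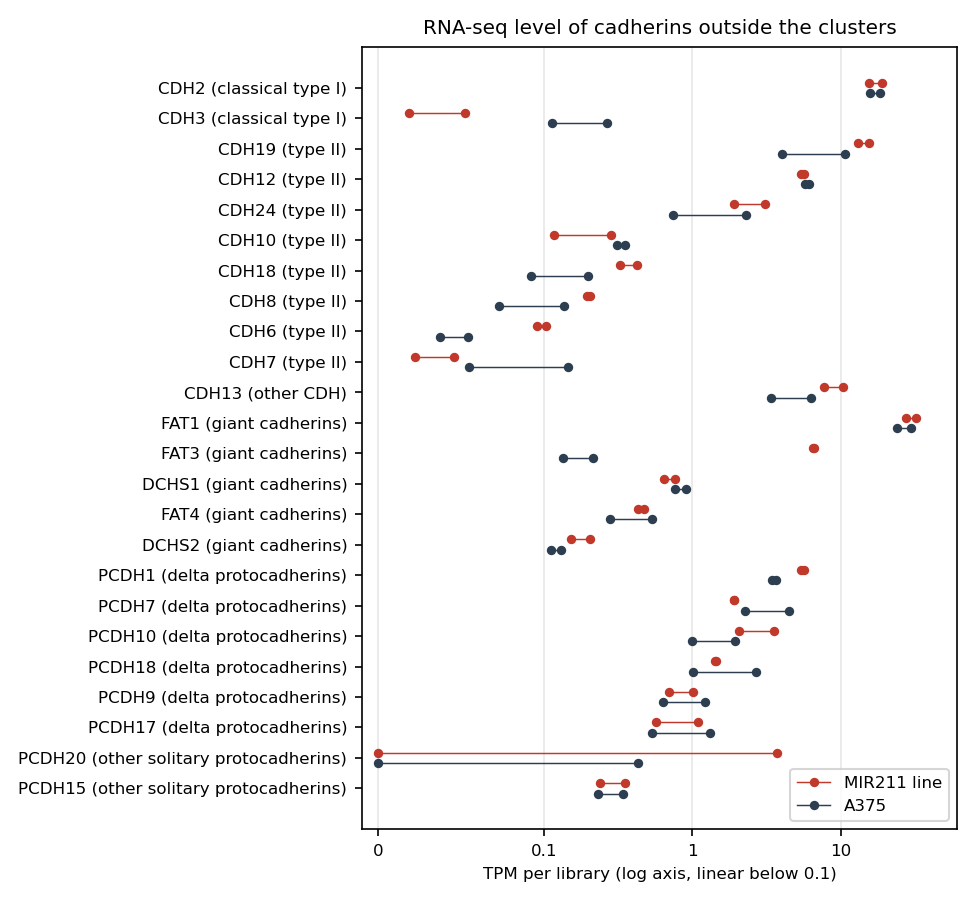
TPM in each RNA-seq library (log axis, linear below 0.1) for the tested members outside the 3 clusters, with the MIR211 line above A375 in each row; each point is 1 library and the line joins the 2 libraries of a line. FAT1, CDH2, CDH19 and CDH13 are the 4 highest, FAT3 sits near 6.5 TPM in the MIR211 line and below 0.3 TPM in A375, and PCDH20 is at 0 in library b of both lines.

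Between the lines, total RNA differed beyond the test's threshold for 1 member, FAT3. FAT3, a giant cadherin that shapes the dendrites of retinal neurons in mouse, had 94.1 and 85.4 CPM in the MIR211 line and 3.09 and 1.77 CPM in A375. Both MIR211 libraries lay far above both A375 libraries. The log2 difference was 5.22 (SE 0.34, adjusted p = 0.0375, edgeR quasi-likelihood test with Benjamini-Hochberg adjustment over 19258 genes). Of all genes tested, 0.379% were called in either direction (0.171% higher and 0.208% lower), and 1 of the 77 members that passed the filter on low counts is near that background. The filter kept 77 members and left 15 untested. With 1 library left out, FAT3 stayed between 4.86 and 5.65 on the log2 scale, and its adjusted p was 0.0509 without MIR211 library a, 0.0484 without MIR211 library b, 0.0643 without A375 library a and 0.0942 without A375 library b.

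Without passing, most members had values above 0. The log2 difference was above 0 for 60 of the 77 tested members, with a median of 0.61, beside 49.6% of all genes tested and a median of -0.00345. Both MIR211 libraries lay above both A375 libraries for 49 of the 77, where 20.7% of all genes tested did so, and below for 8, where 20.3% did so. These counts run over members that passed the filter, the clustered genes share exons or sequence, and all 77 share the same 4 libraries, so they are not separate results. An unadjusted p under 0.05 was found for 22 members, against 2107 of all genes tested.

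**Figure D2:**
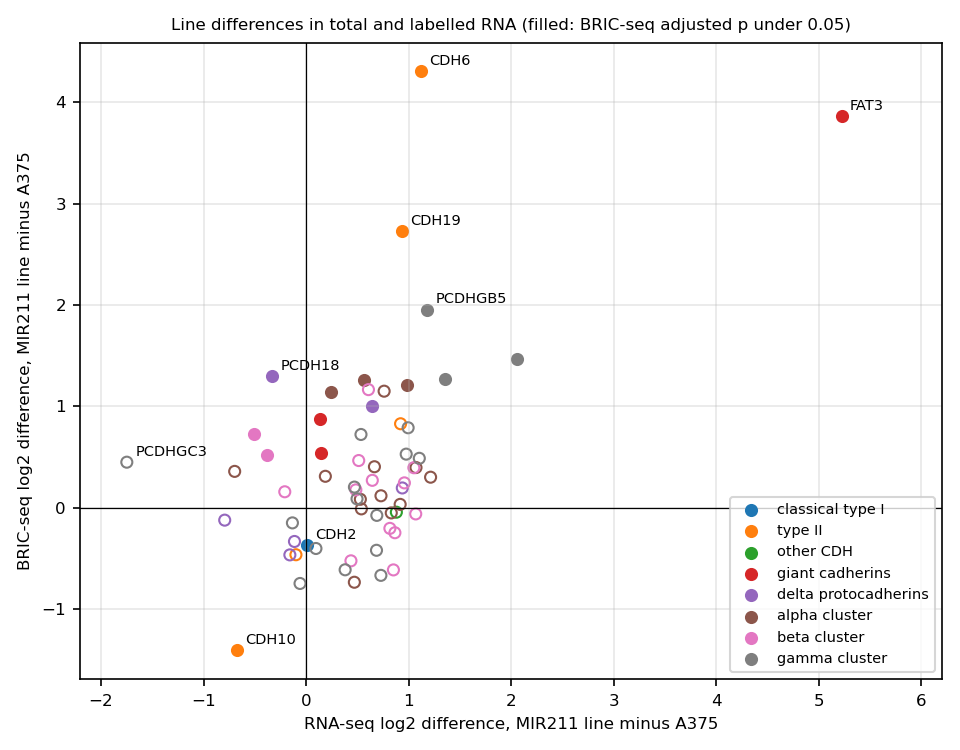
Log2 difference, MIR211 line minus A375, in total RNA (x axis, RNA-seq) and in labelled RNA (y axis, BRIC-seq) for the 62 members tested in both, coloured by role; filled points passed the BRIC-seq test. FAT3 is far to the upper right at 5.22 and 3.86, CDH6 and CDH19 are high in BRIC-seq, and PCDHGC3 is below 0 in RNA-seq at -1.75 and above 0 in BRIC-seq at 0.45.

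Among the classical cadherins, CDH2 differed by 0.01 (SE 0.21, log2) in RNA-seq. P-cadherin (CDH3), which joins melanocytes to keratinocytes alongside E-cadherin, was at 0.0883 and 0.226 CPM in the MIR211 line and 0.540 and 1.15 CPM in A375, a log2 difference of -2.43 (SE 0.67, adjusted p = 0.281, edgeR). Both MIR211 libraries lay below both A375 libraries, at counts of 3 and 7 in the MIR211 line and 11 and 33 in A375. Among type II cadherins, CDH18 differed by 1.37 (SE 0.46) and CDH6 by 1.12 (SE 0.39) on the log2 scale, and CDH19 by 0.94 (SE 0.53), none past the threshold. CDH12, a type II cadherin of brain, had 5.603 and 5.36 TPM in the MIR211 line and 5.67 and 6.11 TPM in A375. CDH13 differed by 0.88 (SE 0.40, log2).

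Among the delta protocadherins, PCDH1 stood at 24.3 and 21.6 CPM in the MIR211 line and 14.97 and 14.4 CPM in A375, a log2 difference of 0.64 (SE 0.18, adjusted p = 0.284, edgeR), and the lines did not overlap. PCDH7 and PCDH18 were at -0.79 (SE 0.32) and -0.33 (SE 0.45), and PCDH10 at 0.94 (SE 0.38). PCDH20, listed among the other solitary protocadherins and not the delta genes, was uneven between libraries. It had 472 and 0 counts in the MIR211 line and 33 and 0 counts in A375, so that library b of both lines was at 0 and library a was not. Its log2 difference of 3.17 had an SE of 2.48 and was -7.38 without MIR211 library a.

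In the clusters, the sums of CPM were higher in both MIR211 libraries for alpha and beta and overlapped for gamma. The 15 alpha genes summed to 103 and 95.6 CPM in the MIR211 line and 74.3 and 52.25 CPM in A375. The 16 beta genes summed to 119.5 and 102 CPM in the MIR211 line and 82.9 and 88.5 CPM in A375. The 22 gamma genes summed to 80.8 and 62.5 CPM in the MIR211 line and 81.2 and 57.2 CPM in A375. No clustered gene passed the test. In single genes, both MIR211 libraries lay above both A375 libraries for 12 of 15 alpha, 13 of 16 beta and 14 of 22 gamma genes, where 20.7% of all genes tested did so. They lay below for 0 alpha, 2 beta and 1 gamma gene, where 20.3% of all genes tested did so.

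PCDHA10 had the highest log2 difference of the alpha cluster, with 10.7 and 10.2 CPM in the MIR211 line and 5.45 and 3.58 CPM in A375 (log2 difference 1.21, SE 0.29, adjusted p = 0.208, edgeR). DESeq2 called it, with an adjusted p of 0.0383. PCDHA11 had a value below 0 with overlapping lines, at 3.32 and 1.91 CPM in the MIR211 line and 5.89 and 2.64 CPM in A375. In the beta cluster, PCDHB5 was the highest, at 24.2 and 26.5 CPM in the MIR211 line and 12.9 and 19.5 CPM in A375, and PCDHB8 had 10.3 and 8.47 CPM in the MIR211 line and 4.91 and 4.76 CPM in A375. PCDHB2 and PCDHB6 had both MIR211 libraries below both A375 libraries. PCDHB16 had 14.6 and 1.52 CPM in the MIR211 line and 12.1 and 8.86 CPM in A375, so that MIR211 library b lay far below the other 3 libraries.

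PCDHGC3, a C-type gamma gene, had the highest mean TPM and the lowest log2 difference of the gamma cluster. It had 12.5 and 4.75 CPM in the MIR211 line and 41.7 and 16.4 CPM in A375. Both MIR211 libraries lay below both A375 libraries, and library a exceeded library b in both lines. The log2 difference was -1.75 (SE 0.65, adjusted p = 0.438, edgeR). PCDHGA9 had 1.85 and 2.75 CPM in the MIR211 line and 0.736 and 0.382 CPM in A375, a log2 difference of 2.06 (SE 0.46, adjusted p = 0.193, edgeR). Reads from the shared exons of the alpha and gamma clusters, and from similar beta genes, can be assigned to more than 1 gene, and how the authors' counting shared them is not given in the sources used here.

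**Figure D3:**
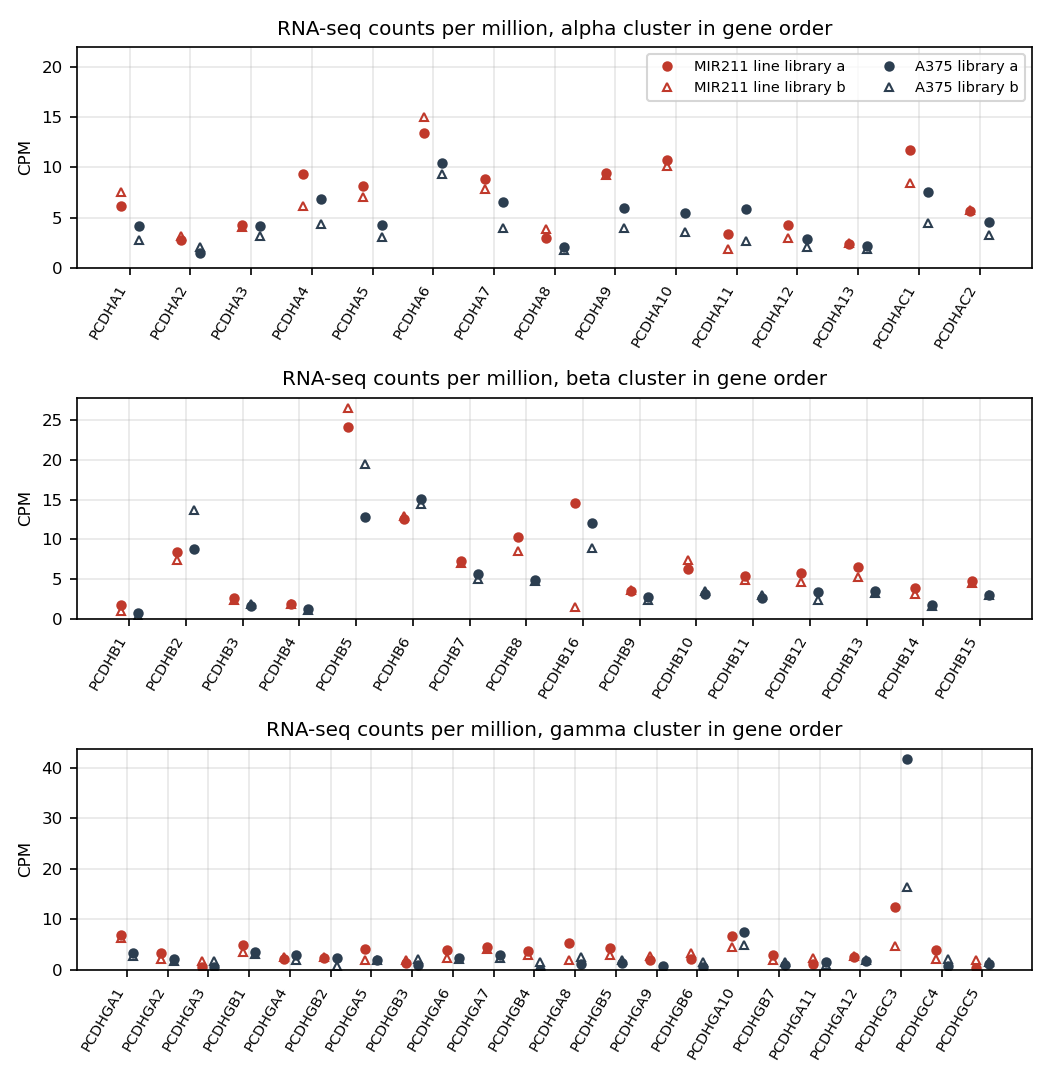
RNA-seq CPM of each gene of the alpha, beta and gamma clusters in the order of their starts on chromosome 5, with MIR211 points left of A375 points and 1 point per library. MIR211 points lie above A375 points for most alpha and beta genes, PCDHGC3 reaches 41.7 CPM in A375 library a, and PCDHB16 is at 1.52 CPM in MIR211 library b.

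In labelled RNA, the lines were matched at each chase time. Of 62 members tested, 15 were higher and 2 lower in the MIR211 line, beside 13.6% of 13703 genes tested that were higher and 12.3% that were lower (25.9% in all). All 15 lay above A375 at all 4 times and both lower members lay below at all 4. The test used these same libraries, so the agreement over the 4 times is no separate support. The 4 times stand in for replicates.

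FAT3 had the smallest p of the members. It had 186, 267, 359 and 543 CPM at 0, 1, 3 and 6 h in the MIR211 line and 13.1, 17.4, 24.6 and 38.4 CPM in A375, a log2 difference of 3.86 (SE 0.08, adjusted p = 1.24e-05, edgeR). CDH19 had 137, 169, 242 and 374 CPM in the MIR211 line and 16.6, 34.96, 38.9 and 46.8 CPM in A375 (log2 2.73, SE 0.15, adjusted p = 0.000193, edgeR). Every MIR211 library exceeded every A375 library for both genes. CDH6, a type II cadherin of kidney and neural crest, had 63 counts in the MIR211 line and 3 in A375, a ratio of 23.0 with a counting interval of 7.51 to 114 (exact binomial, 95%). It was the 1 called member with no A375 library at the count filter's level. It met the filter through the MIR211 libraries alone, so it had to differ and its call adds no support to the count of 15. PCDHA1, PCDHA13, PCDHAC2 and PCDHGB6 reached that level in all 4 MIR211 libraries but in only 2, 3, 3 and 3 A375 libraries. For them too the MIR211 line alone met the filter. FAT1 had 752 to 2284 CPM over the chase in the MIR211 line and 626 to 1356 CPM in A375 (log2 0.54, SE 0.09, adjusted p = 0.00775, edgeR). FAT4, the receptor that pairs with DCHS1, was at 0.88 (SE 0.26, adjusted p = 0.0497, edgeR).

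Lower in the MIR211 line were CDH2 and CDH10, a type II cadherin of brain. CDH2 had 109, 155, 240 and 477 CPM in the MIR211 line and 154, 211, 311 and 541 CPM in A375 (log2 -0.37, SE 0.08, adjusted p = 0.0188, edgeR), while its total RNA overlapped between the lines. CDH10 had 1.18 to 2.90 CPM in the MIR211 line and 2.19 to 6.15 CPM in A375 (log2 -1.41, SE 0.31, adjusted p = 0.0211, edgeR). Among protocadherins, PCDHGB5 had 9.15, 25.7, 13.8 and 33.2 CPM in the MIR211 line and 5.54, 5.02, 3.55 and 5.77 CPM in A375, without overlap. PCDHGB5, PCDHGA9 and PCDHGB6 were higher by 1.96, 1.47 and 1.27 on the log2 scale, PCDHAC2, PCDHA1 and PCDHA13 by 1.26, 1.21 and 1.14, PCDHB2 and PCDHB16 by 0.73 and 0.52, and PCDH18 and PCDH1 by 1.30 and 1.00.

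With each of the 8 libraries left out in turn, 5 of the 15 higher members (FAT3, CDH19, CDH6, FAT1 and PCDHGB5) and neither of the 2 lower ones passed every time. A scaling with the summed glycolytic mRNAs held constant was added after seeing the data, and it moved the median of all genes to -0.61. With it 5 members were higher (FAT3, CDH19, CDH6, PCDHGB5 and PCDHGA9), 19 were lower, and FAT1 and PCDHB16 stood at -0.02 and -0.05. On the main scaling 9 of 16 tested glycolytic genes were themselves higher in the MIR211 line and 1 was lower, with a median of 0.39. Holding them constant is therefore not neutral between the lines. Some members with unequal counts did not pass the count filter in BRIC-seq. DCHS1, the Dachsous ligand of FAT4, had 0, 0, 7 and 0 counts at 0, 1, 3 and 6 h in the MIR211 line and 14, 6, 48 and 64 counts in A375, and in RNA-seq 205 and 145 counts in the MIR211 line and 123 and 188 counts in A375. CDH3 had 0, 1, 0 and 0 counts in the MIR211 line and 4, 4, 12 and 18 counts in A375. For both genes the MIR211 line was the lower at all 4 times. PCDHGB4 had no counts at any time in the MIR211 line and 0, 44, 44 and 43 counts in A375, which is at least 42.7-fold lower against a floor of 3 counts over the line, although in RNA-seq it had 123 and 90 counts in the MIR211 line and 0 and 44 in A375. PCDH20 had 0, 79, 92 and 69 counts at the 4 times in the MIR211 line and 0 at each in A375, at least 81.9-fold higher over the sums, although both lines were at 0 at 0 h and A375 library a held 33 counts in RNA-seq.

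The assays used separate libraries. PCDHB2, PCDHB16 and PCDH18 passed as higher in labelled RNA and had RNA-seq values of -0.51 (SE 0.29), -0.38 (SE 0.98) and -0.33 (SE 0.45).

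Slopes over the chase are described by role. A slope is the change in log2 CPM per hour, against all labelled RNA as scaled, so a positive slope marks a transcript whose share of the label grew. Averaged over both lines, 22 of the 62 tested members rose and 4 fell, beside 29.9% of all genes tested that rose and 34.4% that fell (64.3% in all). The 22 were 11 beta, 5 gamma and 1 alpha gene together with CDH2, CDH13, CDH19, FAT1 and FAT3, and the 4 were 3 delta protocadherins and CDH8. With each of the 8 libraries left out in turn, 14 of the 22 and 2 of the 4 (PCDH9 and PCDH18) passed every time. Without the 6 h libraries of both lines, an alternative added after seeing the data, 8 of the 22 and 2 of the 4 (PCDH18 and CDH8) passed. With glycolytic mRNAs held constant, a scaling under which the median of all genes was -0.49, none rose and 59 fell. On the main scaling 15 of 16 tested glycolytic genes rose, with a median of 0.42 log2 per hour. A slope is therefore read here against the other genes. The beta cluster had a median slope of 0.23, gamma 0.03, alpha -0.08 and the delta protocadherins -0.23 log2 per hour, beside -0.04 for all genes tested.

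CDH2 rose by 0.32 log2 per hour (SE 0.02, adjusted p = 1.44e-05, edgeR), and its CPM increased at every step in both lines. CDH13 rose by 0.31 (SE 0.03, adjusted p = 0.000124, edgeR), with most of the increase between 3 and 6 h. It had 88.9, 98.6, 116 and 318 CPM in the MIR211 line and 88.3, 105, 123 and 321 CPM in A375, and the lines stayed together. FAT3 rose by 0.24 (SE 0.03), FAT1 by 0.21 (SE 0.03) and CDH19 by 0.21 (SE 0.04). CDH13 no longer passed without the 6 h libraries of both lines, where 8 members rose and 8 fell.

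In the beta cluster 11 of 14 tested genes rose and none fell, where 29.9% of all genes tested rose and 34.4% fell. Without the 6 h libraries 8 of the 11 no longer passed, all but PCDHB6, PCDHB8 and PCDHB16. PCDHB6 rose by 0.37 (SE 0.03, adjusted p = 2.46e-05, edgeR), at 21.3, 31.0, 50.7 and 103 CPM in the MIR211 line and 20.99, 25.1, 46.6 and 91.7 CPM in A375, with a similar course in both lines. PCDHB10 rose by 0.35 (SE 0.05) and PCDHB16 by 0.28 (SE 0.03). In the gamma cluster 5 of 17 rose, which is near the share of all genes. They were led by PCDHGC3 at 0.36 (SE 0.05), the gene with the highest RNA-seq TPM of its cluster. In the alpha cluster 1 of 15 rose, PCDHA1 at 0.22 (SE 0.07), and none fell, with 13 of 15 values below 0. PCDHA1 no longer passed without MIR211 0 h, 1 h or 6 h, without the 6 h libraries of both lines, without a count filter or with total counts or glycolytic mRNAs held constant as the scaling. The alpha slopes lay between -0.28 and 0.22, and the sum of the cluster was 242, 262.5, 184 and 262 CPM in the MIR211 line and 251, 252, 134 and 177 CPM in A375.

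Of 6 tested delta protocadherins, 3 fell and none rose, where 34.4% of all genes tested fell and 29.9% rose. PCDH18 fell by 0.76 log2 per hour (SE 0.12, adjusted p = 0.000786, edgeR), the steepest loss in the superfamily, with 12.9, 17.3, 5.63 and 0.971 CPM in the MIR211 line and 7.29, 7.54, 1.78 and 0 CPM in A375. PCDH9 fell by 0.32 (SE 0.06, adjusted p = 0.00206, edgeR), with 25.0, 28.9, 24.8 and 8.01 CPM in the MIR211 line and 38.8, 37.9, 26.9 and 8.95 CPM in A375. PCDH10 fell by 0.20 (SE 0.05). PCDH18 and PCDH10 belong to the delta-2 group, whose tails bind the actin-regulating WAVE complex, and PCDH9 to delta-1. For PCDH9 and PCDH10 the largest drop lay between 3 and 6 h, and neither passed without the 6 h libraries. The type II gene CDH8 fell by 0.29 (SE 0.10) at 0.597 to 4.85 CPM, and no longer passed without MIR211 0 h or 3 h, without A375 0 h or 6 h, with DESeq2 or without a count filter.

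**Figure D4:**
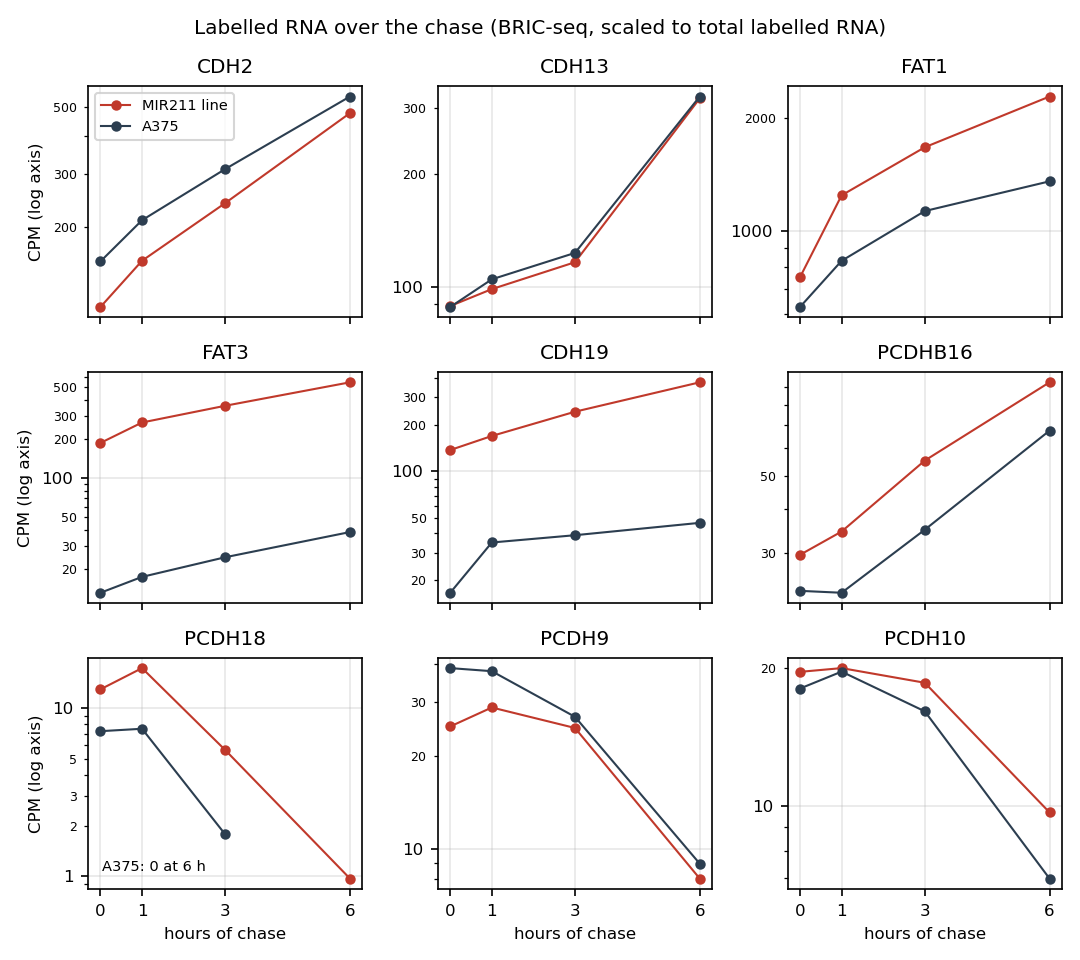
CPM on a log axis against hours of chase for 9 members in the MIR211 line and A375, with 1 library per point, so that there are no error bars. CDH2, CDH13, FAT1, FAT3, CDH19 and PCDHB16 climb within labelled RNA and PCDH18, PCDH9 and PCDH10 decline by 6 h; on a scale with glycolytic mRNAs held constant all 9 slopes are below 0.

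**Figure D5:**
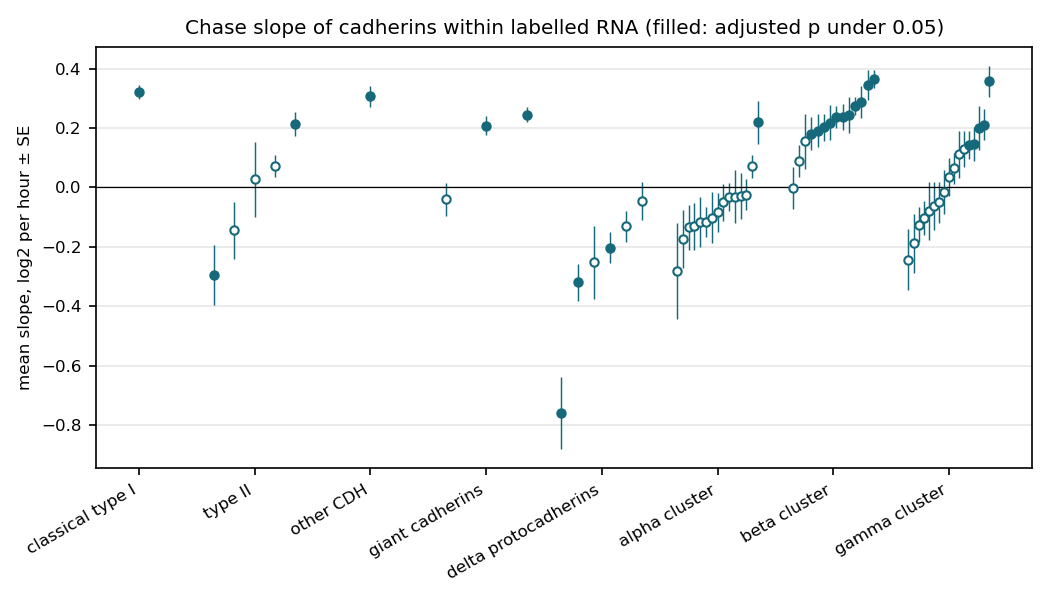
Mean chase slope of the 62 tested members by role, in log2 per hour with the SE; filled points passed the test. Beta genes lie above 0 with 1 exception near 0, alpha genes mostly below 0 and delta protocadherins all below 0; with glycolytic mRNAs held constant every member lies below 0.

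Slopes were also fitted in each line. In the MIR211 line 19 members rose and 2 fell, where 42.9% of all genes tested passed (21.9% rising and 21.0% falling). In A375 13 rose and 7 fell, where 47.2% passed (23.0% rising and 24.2% falling). The difference between the slopes, MIR211 line minus A375, passed for no member and for no gene (0% of 13703 tested, edgeR), with 5 members and 527 genes at an unadjusted p under 0.05, and DESeq2 called 0 members and 14 genes. The values were above 0 for 56 of 62 members, with a median of 0.13 log2 per hour, beside 50.6% of all genes tested and a median of 0.00165. The count was 14 of 14 in the beta, 16 of 17 in the gamma and 12 of 15 in the alpha cluster, and 14 of 16 outside the clusters. With total counts it was 48 of 62, beside 39.2% of all genes under that scaling. With glycolytic mRNAs held constant it was 57 of 62, and the share of all genes under that scaling is not given here. All members share the same libraries, and the clustered genes share exons or sequence, so these signs are not separate results. The smallest unadjusted p belonged to PCDHAC1, with 16.7, 26.3, 15.9 and 37.4 CPM in the MIR211 line and 17.2, 12.6, 8.47 and 5.37 CPM in A375 (slope difference 0.42, SE 0.11). Its A375 values declined at every step and its MIR211 values did not. FAT4 differed by 0.24 (SE 0.08) and PCDHGB6 by 0.35 (SE 0.12).

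Members with a miR-211 seed match were set beside those without one. The median RNA-seq line difference was 0.73 for the 21 tested members with a match and 0.54 for the 56 without. The median BRIC-seq line difference was 0.31 with a match and 0.20 without, and the median mean slope -0.05 with and 0.11 without. Of the 21, 15 are the alpha genes that share 1 site, so these medians rest on few separate sequences. FAT3, with a match, had the highest RNA-seq value of all members.

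Partners of the family were taken from lists of known roles. The catenin list also held CTNNBIP1, which binds beta-catenin and is not itself a catenin. Of the 11 genes of this list tested in RNA-seq none was called. In BRIC-seq 5 of 8 rose over the chase, where 29.9% of all genes tested rose. These were CTNNA1 by 0.35 (SE 0.03), CTNNB1 by 0.33 (SE 0.02), CTNNAL1 by 0.33 (SE 0.03), JUP by 0.45 (SE 0.08) and CTNNBIP1 by 0.20 (SE 0.07). Between the lines in labelled RNA 4 of the 8 were higher and 1, CTNNBIP1, was lower, where 13.6% of all genes tested were higher and 12.3% lower. CTNNA1 was higher by 1.12 (SE 0.12), and CTNND2 had 37, 54, 41 and 34 counts in the MIR211 line and 0 at each time in A375, so that it met the count filter through the MIR211 line alone. Beta-catenin (CTNNB1), which links cadherins to alpha-catenin, had 803 and 712 CPM in the MIR211 line and 548 and 607 CPM in A375. In the desmosomal list 1 of 6 was higher in RNA-seq, where 0.171% of all genes tested were, plakophilin-2 (PKP2), a plaque protein, with 6.21 and 7.30 CPM in the MIR211 line and 0.196 and 0.104 CPM in A375 (log2 5.50, SE 0.41, adjusted p = 0.0441, edgeR). With 4 and 3 counts in A375 it met the count filter through the MIR211 line alone. No other gene of the partner lists was called in RNA-seq.

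Of 4 tested repressors of cadherin genes, 3 fell over the chase, ZEB2 by 0.43 (SE 0.04), ZEB1 by 0.26 (SE 0.05) and SNAI2 by 0.54 (SE 0.17), where 34.4% of all genes tested fell and 29.9% rose, and none of 7 was called in RNA-seq. Of 9 tested proteases and gamma-secretase subunits that cut cadherins, 5 rose and 1 fell over the chase. In the Hippo list, which follows FAT signalling, 4 of 24 rose and 11 fell over the chase. Of 13 tested YAP and TAZ targets, 8 were higher and 1 was lower in labelled RNA of the MIR211 line. Among all genes tested, 13.6% were higher and 12.3% lower. DLC1 and AMOTL2 reached the count filter's level in all 4 MIR211 libraries but in only 2 and 3 A375 libraries. For them the MIR211 line alone met the filter. CCN2 reached that level in 3 MIR211 libraries and 1 A375 library. No gene of either list was called in RNA-seq. Of 11 tested regulators of the protocadherin clusters, such as CTCF and cohesin, 3 rose and 4 fell. Among 10 effectors of clustered protocadherins 4 rose and 2 fell. The regulator counts lie near the shares of all genes.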

How the data were processed

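RNA-seq measured total RNA and BRIC-seq measured 5-bromouridine-labelled RNA over a chase. The deposited values are raw read counts per gene, whole numbers with no normalization by the authors. The submitters' processing notes name HISAT2 2.1.0 and StringTie, without saying what each did. They name hg19 and the series' design text names hg38, so the build behind the counts is uncertain, and coordinates given here come from the reference annotation alone. The library kit was a stranded one for total RNA, per the labels' protocols, and for the counting no strand setting is given in the sources used here, which leaves overlapping, antisense and paralogous genes uncertain.

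Of 60675 IDs, 56558 (93.2%) were in GENCODE 44, which gave symbols and exon lengths. In BRIC-seq, 1 entry that names no gene, at most 0.00122% of a library, was left out. The quasi-likelihood test of edgeR 4.0.16 (R 4.3.3) was run on the counts with TMM scaling, filterByExpr by line (minimum count 10, minimum total 15) and Benjamini-Hochberg adjustment over all genes tested, with an adjusted p under 0.05 as passing. SEs were taken as the log2 value over the root of the F statistic. Intervals and floors cover counting error only. RNA-seq was fitted with the line only, the mean slope with hours and line, slopes per line and their difference with an interaction, and the BRIC-seq line difference with time as a factor. A fold against 0 uses a floor of 3 counts. On simulated counts all of 200 genes changed by 3 on the log2 scale were recovered in RNA-seq, and 79.5% of slope differences of 0.6. The changed genes were drawn from those with higher counts. The simulated spread followed the trend over expression, without a gene's own excess. Recovery in the real data can be lower: the lowest RNA-seq log2 difference among the fibroblast markers, -6.50, was not called. Alternatives were DESeq2 1.42.0, other scalings and filters, a replicate block and libraries left out.

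Named members passed a line or slope-difference test, had an unadjusted p under 0.05 in RNA-seq at a mean CPM of at least 1, led their role group in TPM, were among the 5 steepest slopes of each sign, or have a known role in melanocytes. Others named here, and partner genes beyond 4 per list, were chosen after their values were seen. The members and gene lists were chosen with earlier results of these data known.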

Additional observations from a re-analysis of the deposited data

How the results depend on the processing

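In RNA-seq, members called higher numbered 1, and 2 with DESeq2. Leaving out each library gave 0 to 1 higher. With the letters a and b as a replicate block 1 member was called lower, PCDHGC3, with an adjusted p of 0.0436 (edgeR). The letters cannot be taken to pair the libraries: the a minus b differences of the lines correlated at 0.238 over 19258 genes, which is a single correlation for 2 pairs. With libraries left out, CDH2 ran from -0.16 (without A375 library b) to 0.21, and was -0.0758 without MIR211 library b, and PCDH20 ran from -7.38 (without MIR211 library a) to 10.8. DESeq2 called 748 genes of all, the block 192, no count filter 237 and the fit in use 73.

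In BRIC-seq, mean slopes (22 rising, 4 falling members) gave 6 rising and 29 falling with total counts, 0 and 59 with glycolytic mRNAs held constant, and 8 and 8 without the 6 h libraries. No count filter gave 2 falling, and libraries left out gave 17 to 22 rising and 3 to 7 falling. With glycolytic mRNAs held constant the slopes were -0.15 for CDH13, -0.24 for CDH19, -0.13 for CDH2, -0.25 for FAT1, -0.38 for PCDHA6, -0.11 for PCDHB10, -0.22 for PCDHB5, -0.0881 for PCDHB6 and -0.0971 for PCDHGC3. PCDHA6 had -0.0928 with total counts, and PCDH1 ran from -0.0749 to 0.0224 with libraries left out (the highest without MIR211 at 6 h) and had 0.12 without 6 h in both lines.

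Slopes in the MIR211 line (19 and 2) gave 4 and 9 with total counts, 0 and 46 with glycolytic mRNAs held constant and 1 falling without a count filter, with 0 to 19 rising and 0 to 3 falling when libraries were left out. Slopes in A375 (13 and 7) gave 3 and 23, and 0 and 56, under the same scalings, 8 and 1 without a filter, 3 falling with DESeq2 size factors and 4 with DESeq2, and 0 to 12 rising and 0 to 6 falling when libraries were left out.

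The BRIC-seq line difference (15 higher, 2 lower) gave 9 and 5 without a filter, 7 lower with total counts, 5 and 19 with glycolytic mRNAs held constant, and 5 to 11 higher and 0 to 4 lower when libraries were left out. With that scaling FAT1 was at -0.0219, PCDHA6 at -0.48, PCDHB16 at -0.0468, PCDHB5 at -0.30 and PCDHGC3 at -0.12. PCDHA6 had -0.0248 with total counts, and CDH13 ran from -0.0589 to 0.0355 with libraries left out, the highest without A375 at 3 h. The settings without 6 h, and glycolytic mRNAs held constant for the line and slope differences, were chosen after seeing the data. The cause of these shifts was not tested. No slope difference was called for a member under any setting run. Depth limits members under about 1 CPM.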
